A study of Mus musculus with 12 samples.

Results

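Adipocyte and mesenteric fat genes were followed in the jejunum of 12 male mice. The set held 10 genes chosen by name, Adipoq, Lep, Cfd, Retn, Plin1, Cidea, Cidec, Pnpla2, Fabp4 and Lpl, and all 10 had at least 1 probe (15 probes in all) among the 22911 gene symbols of a 1-colour Agilent array. The groups, of 3 mice each, were IAP knockout (Akp3-/-) mice given IIAEK, IAP knockout mice given vehicle, wild-type mice given IIAEK and wild-type mice given vehicle. IAP is intestinal alkaline phosphatase, and the labels give its knockout as Akp3-/-. IIAEK is a pentapeptide named by its amino acid letters and described in the labels as lowering cholesterol. Mice were 7 weeks old at the start and received IIAEK by mouth daily for 14 days, 600 mg per kg of body weight each time, or carboxymethylcellulose sodium salt alone, the vehicle, at 5 g/L. A label field of the IIAEK samples gives the length in weeks, whereas titles and protocol give days. All mice were fasted for 8 h before the jejunum was taken. The labels name the knockout by its gene and give no strain background, and they state no removal of attached mesentery.

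White adipocytes store triglyceride in a large lipid droplet and secrete hormones into the blood. The mesentery that suspends the gut carries white fat along its inner border, whereas enterocytes make their own lipid droplets while absorbing dietary fat. Adipoq, Cfd, Retn and Lep encode secreted adipocyte proteins, Plin1, Cidea and Cidec coat or enlarge the droplet, Pnpla2 starts the breakdown of stored triglyceride, and Fabp4 and Lpl carry or release fatty acids.

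A level is the log2 of the processed signal minus the log2 of the 75th percentile of its array, so that 0 is that percentile. The 75th percentile was 575 to 816 signal units, and the share of spots flagged well above background was 59.99% to 67.1%. Correlations between arrays were 0.978 to 0.992 within groups and 0.965 to 0.994 between groups. Akp3, the deleted gene, was not well above background on any of the 6 knockout arrays, against 3 of 3 wild-type IIAEK arrays and 2 of 3 wild-type vehicle arrays. Its level in wild-type vehicle replicate 3, -6.42, lay within the knockout range, -7.33 to -5.96. A second, dimmer Akp3 probe was well above background on 2 of 3 wild-type IIAEK arrays and 0 of 3 wild-type vehicle arrays. Of 4 alkaline phosphatase genes, Akp3 included, 3 were well above background on 3 of 3 arrays of both knockout groups. All 13 markers of small intestinal epithelium were well above background on 3 of 3 arrays of every group. Slide 1 held replicates 1 and 2 of both knockout groups and replicate 1 of both wild-type groups, and slide 2 held the other 6 arrays. Every difference within a slide therefore rests on 1 or 2 arrays per group. Replicates are separate mice by their labels, with 1 array each, and the number of arrays limits the precision.

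Promoter windows from RefSeq (GRCm38.p6, 250 bases before to 50 bases after the start of the transcript) were found for 7 of the 10 genes. The windows of the 4 genes with the widest spread between arrays, and of Lep, which had the narrowest, are printed 5′ to 3′ on the strand of the gene. They lie at chr16:23146286-23146585 (+) for Adipoq, chr10:79890603-79890902 (+) for Cfd, chr8:3655520-3655819 (+) for Retn, chr7:79732727-79733026 (-) for Plin1 and chr6:29059971-29060270 (+) for Lep. Capitals mark matches, on either strand, to any of 4 motifs: the TATA box TATAAA, the CCAAT box CCAAT, the nuclear receptor half-site AGGTCA and the C/EBP-type site TTGCNNAA. No marked matches overlap.
Adipoq: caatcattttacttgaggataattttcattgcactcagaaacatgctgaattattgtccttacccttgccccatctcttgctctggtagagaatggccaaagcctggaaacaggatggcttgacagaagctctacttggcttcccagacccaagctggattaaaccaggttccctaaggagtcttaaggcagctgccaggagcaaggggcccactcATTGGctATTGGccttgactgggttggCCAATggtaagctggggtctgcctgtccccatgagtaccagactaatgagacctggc
Cfd: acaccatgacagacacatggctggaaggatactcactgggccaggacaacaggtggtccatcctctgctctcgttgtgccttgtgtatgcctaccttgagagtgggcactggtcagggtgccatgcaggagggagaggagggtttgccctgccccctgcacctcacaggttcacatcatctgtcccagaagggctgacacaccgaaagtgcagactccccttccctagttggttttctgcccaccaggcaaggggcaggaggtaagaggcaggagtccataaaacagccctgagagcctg
Retn: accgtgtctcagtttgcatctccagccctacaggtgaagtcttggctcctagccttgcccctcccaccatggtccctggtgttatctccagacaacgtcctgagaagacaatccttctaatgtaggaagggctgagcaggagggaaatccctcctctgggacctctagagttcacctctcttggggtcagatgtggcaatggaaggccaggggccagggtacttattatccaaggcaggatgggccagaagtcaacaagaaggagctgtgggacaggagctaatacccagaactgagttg
Plin1: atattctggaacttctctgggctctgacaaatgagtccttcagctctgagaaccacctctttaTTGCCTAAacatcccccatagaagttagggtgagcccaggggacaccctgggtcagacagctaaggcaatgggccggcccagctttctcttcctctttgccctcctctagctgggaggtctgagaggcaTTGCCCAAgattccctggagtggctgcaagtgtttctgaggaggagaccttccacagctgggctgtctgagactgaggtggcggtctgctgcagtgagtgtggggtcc
Lep: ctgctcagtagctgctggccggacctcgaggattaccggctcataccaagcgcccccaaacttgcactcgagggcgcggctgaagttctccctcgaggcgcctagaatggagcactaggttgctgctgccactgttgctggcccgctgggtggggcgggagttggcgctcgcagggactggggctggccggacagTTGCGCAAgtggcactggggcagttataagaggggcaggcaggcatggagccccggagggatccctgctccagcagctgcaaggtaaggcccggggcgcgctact
The Adipoq window held 3 CCAAT matches, the Plin1 window 2 TTGCNNAA matches and the Lep window 1 TTGCNNAA match, and the Cfd and Retn windows held none of the 4 motifs. Of 32851 windows of that length, 37.4% held CCAAT, 10.8% TTGCNNAA, 16.3% AGGTCA and 13.6% TATAAA. These matches describe letters in a window and no binding was measured. Cidec and Pnpla2 also had windows. Fabp4, Lpl and Cidea are named without a window.

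The adipokines Adipoq, Cfd and Retn varied between mice of the same group by far more than most genes did, and they varied together. Adipoq encodes adiponectin, a hormone made almost solely by adipocytes. Its levels were 0.58, -7.40 and -0.52 in knockout IIAEK replicates 1, 2 and 3, and 1.27, -0.03 and -2.80 in knockout vehicle replicates. They were -2.78, 0.06 and -1.82 in wild-type IIAEK replicates, and -1.97, -6.38 and -3.01 in wild-type vehicle replicates. The arrays of knockout IIAEK replicate 2 and wild-type vehicle replicate 2 were the lowest and not well above background, while the highest array belonged to the knockout vehicle group, and every pair of groups overlapped. Because the tissue was sampled in bulk, fewer fat cells and less RNA per fat cell cannot be told apart.

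Cfd encodes complement factor D, also called adipsin, a serine protease of the alternative complement pathway that adipocytes secrete. Its levels were 2.62, -4.55 and 2.78 in knockout IIAEK mice, and 2.95, 1.64 and 1.31 in knockout vehicle mice. They were -0.67, 2.66 and 0.84 in wild-type IIAEK mice, and -0.52, -2.94 and 0.40 in wild-type vehicle mice. The lowest array was again knockout IIAEK replicate 2, followed by wild-type vehicle replicate 2, and the knockout vehicle arrays all lay above the wild-type vehicle arrays. The second Cfd probe followed the brighter one (r = 0.989 over the 12 arrays).

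Retn encodes resistin, secreted by white adipocytes in mice. Its levels were -0.33, -5.41 and -0.78 in knockout IIAEK mice, and -0.13, -1.28 and -2.43 in knockout vehicle mice. They were -3.70, -0.59 and -2.13 in wild-type IIAEK mice, and -2.85, -4.70 and -3.61 in wild-type vehicle mice. Knockout IIAEK replicate 2 was not well above background, and the knockout vehicle arrays all lay above the wild-type vehicle arrays. The second Retn probe followed the first (r = 0.976).

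Lep, which encodes the satiety hormone leptin, showed none of this spread. Its levels were -2.41, -2.68 and -2.35 in knockout IIAEK mice, and -2.42, -2.30 and -2.13 in knockout vehicle mice. They were -2.29, -2.31 and -2.36 in wild-type IIAEK mice, and -2.37, -2.14 and -2.41 in wild-type vehicle mice. All 12 arrays lay within 0.56 log2 units and every pair of groups overlapped.

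Among the droplet proteins, Plin1, perilipin 1, which coats the adipocyte droplet and gates lipolysis, was well above background on 6 of 12 arrays and on all 3 arrays of no group, so it was not among the tested genes. Its levels were -4.00, -7.30 and -4.80 in knockout IIAEK mice, and -3.25, -3.86 and -6.51 in knockout vehicle mice. They were -7.67, -4.07 and -5.43 in wild-type IIAEK mice, and -7.44, -7.17 and -7.46 in wild-type vehicle mice. The 6 detected arrays were knockout IIAEK replicates 1 and 3, knockout vehicle replicates 1 and 2 and wild-type IIAEK replicates 2 and 3, and no wild-type vehicle array was detected. The knockout vehicle mean was at least 2.12-fold higher than the wild-type vehicle mean. That bound sets the mean of all 3 knockout vehicle arrays against the lowest signal counted as well above background. In a check added after seeing the data, the bound was 1.35-fold without knockout vehicle replicate 1, 1.68-fold without replicate 2 and 4.19-fold without replicate 3 of that group. With no filter on dim probes the Plin1 change was 2.82 ± 1.07 (SE) with a limma adjusted p = 0.392.

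Cidea and Cidec promote the growth of lipid droplets. Cidea levels ran from -1.72 to -1.40 in knockout IIAEK mice, from -1.49 to -1.26 in knockout vehicle mice, from -1.68 to -1.53 in wild-type IIAEK mice and from -2.11 to -1.55 in wild-type vehicle mice. The knockout vehicle arrays lay above the wild-type vehicle arrays, with a gap smaller than the spread within either group. Cidec levels ran from 4.48 to 4.62 in knockout IIAEK mice, from 4.06 to 5.33 in knockout vehicle mice, from 4.45 to 4.60 in wild-type IIAEK mice and from 4.44 to 5.03 in wild-type vehicle mice. Every pair of groups overlapped in Cidec.

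Pnpla2 encodes adipose triglyceride lipase, which cuts the first fatty acid from triglyceride. Its levels were 3.70, 3.45 and 3.17 in knockout IIAEK mice, and 3.79, 3.52 and 4.22 in knockout vehicle mice. They were 3.56, 3.81 and 3.89 in wild-type IIAEK mice, and 3.27, 3.20 and 2.77 in wild-type vehicle mice. The wild-type vehicle arrays lay below all arrays of the knockout vehicle and wild-type IIAEK groups, and overlapped the knockout IIAEK arrays.

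Fabp4, the adipocyte fatty acid binding protein, is also made by endothelial cells and macrophages. Its levels were 3.82, 2.96 and 3.86 in knockout IIAEK mice, and 4.19, 3.50 and 2.94 in knockout vehicle mice. They were 2.73, 3.49 and 2.50 in wild-type IIAEK mice, and 2.99, 2.83 and 3.13 in wild-type vehicle mice. The groups overlapped in every pair, and the second probe followed the first (r = 0.995).

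Lpl, lipoprotein lipase, releases fatty acids from circulating lipoproteins at the vessel wall. Its levels were 0.42, -0.31 and -0.81 in knockout IIAEK mice, and 0.68, 0.41 and -1.99 in knockout vehicle mice. They were -0.19, 0.66 and -0.17 in wild-type IIAEK mice, and 0.09, -1.44 and -0.71 in wild-type vehicle mice. The groups overlapped in every pair. The lowest array was knockout vehicle replicate 3, not an array at the bottom for Adipoq. The other 2 Lpl probes followed the brightest (r = 0.975 and 0.860), the dimmer of them being well above background on 5 arrays.

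**Figure D1:**
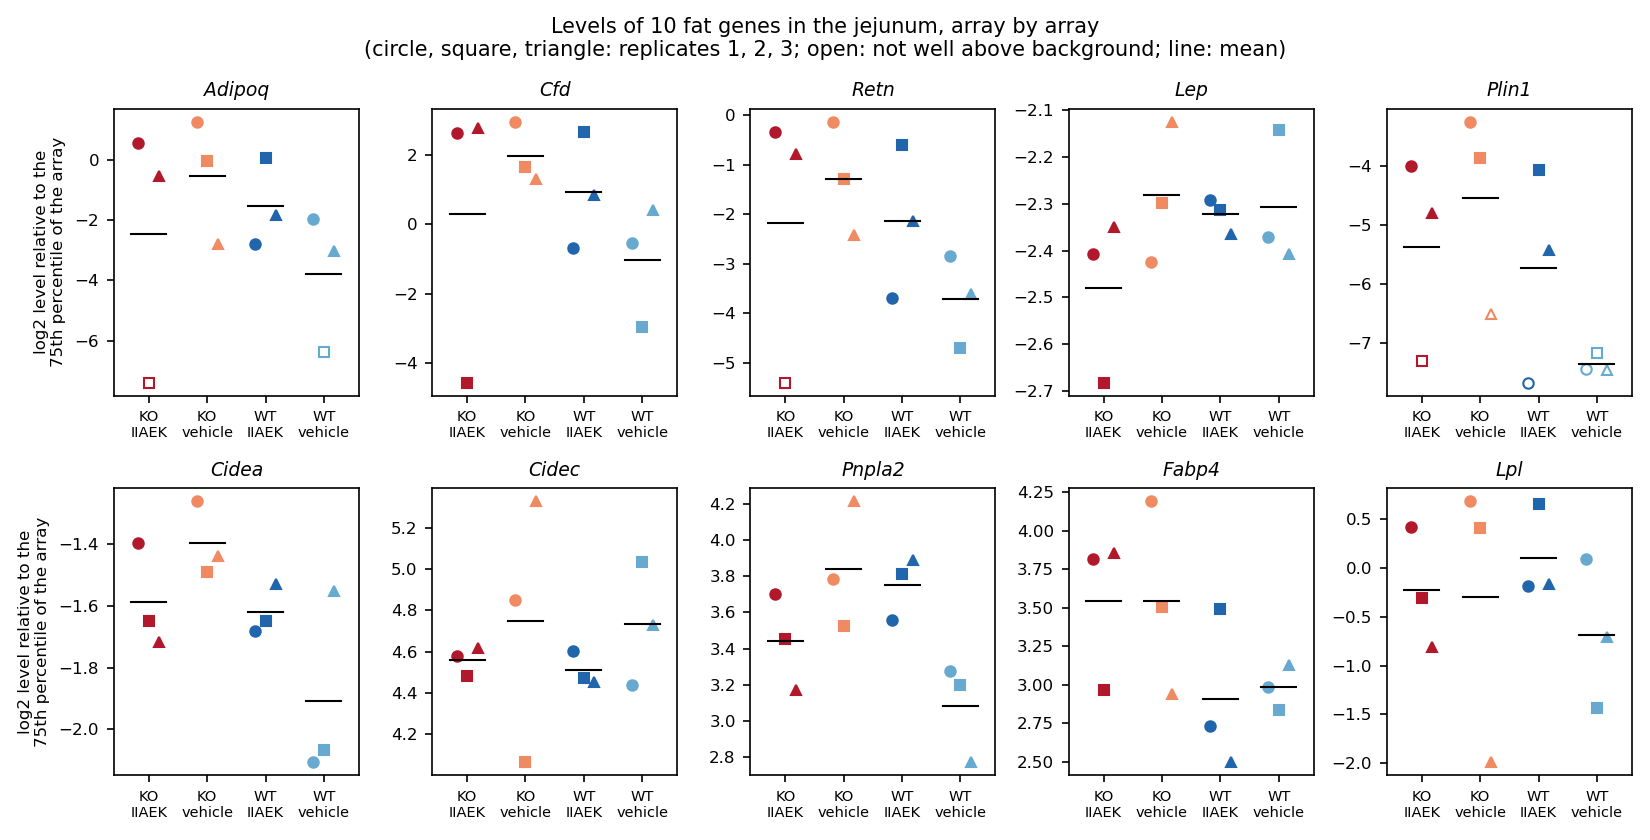
Levels of the 10 genes on each array, on the log2 scale with each array's 75th percentile at 0, with groups along the horizontal axis, replicates 1, 2 and 3 as circle, square and triangle, open symbols for spots not well above background, and lines at group means. Vertical scales differ between panels: Adipoq runs from -3.01 to 1.27 on the 10 arrays where it was well above background, and Lep spans 0.56 log2 units over the 12 arrays.

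The spread within groups differed widely across the set. Of the 27565 genes tested, 15812 had a gene symbol and the rest were probes without one, each counted as a gene. The pooled within-group SD was 2.76 for Adipoq, 2.45 for Cfd and 1.77 for Retn, against a median of 0.25 over all 27565. It was smaller in 99.9%, 99.9% and 99.8% of those genes, in that order. It was 0.92 for Lpl, with 98.5% of genes smaller, and 0.48 for Fabp4, with 88.5% smaller. It was 0.36 for Cidec, 0.27 for Pnpla2, 0.19 for Cidea and 0.14 for Lep, the last with 9.37% of genes smaller. For Adipoq and Retn, arrays not well above background enter these SDs as measured.

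The same mice were high or low in several of these genes. Over the 12 arrays, Adipoq correlated with Retn at Pearson r = 0.961 and Spearman rho = 0.958 (permutation p = 1e-05 and 3e-05, the first the smallest that 100000 permutations can give). Cfd followed it at r = 0.951 and rho = 0.874 (permutation p = 3e-05 and 0.0005), and Plin1 at r = 0.804 and rho = 0.811 (permutation p = 0.00078 and 0.0022). Without the 2 arrays farthest from the Adipoq median, r was 0.947 for Retn, 0.828 for Cfd and 0.942 for Plin1. Within slide 1 and slide 2, r was 0.970 and 0.960 for Retn, 0.994 and 0.971 for Cfd, and 0.784 and 0.842 for Plin1. With group means subtracted from every array, r was 0.964 for Retn, 0.937 for Cfd and 0.779 for Plin1. The relation was therefore not only one between group means, but these values pool the groups and do not show it in each. In wild-type vehicle mice, where Plin1 was not well above background on any array, its highest level was on the lowest Adipoq array. Levels of Plin1, Adipoq and Retn that were not well above background enter these values as measured.

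Fabp4 and Lpl followed Adipoq less closely. Fabp4 had r = 0.685 and rho = 0.678 (permutation p = 0.0138 and 0.0181), with r = 0.848 without the 2 farthest arrays and 0.752 and 0.565 within slides 1 and 2. Lpl had r = 0.590 and rho = 0.797 (permutation p = 0.043 and 0.003), with r = 0.701 without the 2 farthest arrays and 0.917 and 0.646 within slides. The remaining genes gave r = 0.509 for Cidea, 0.302 for Pnpla2, 0.121 for Lep and -0.265 for Cidec, with permutation p = 0.0857, 0.339, 0.702 and 0.405 and rho = 0.462, 0.399, -0.196 and -0.266. Without the 2 farthest arrays their r was 0.402, 0.208, -0.422 and -0.305 in that order. These were 9 relations, and after Benjamini-Hochberg adjustment over them the permutation p of Pearson's r was 9e-05 for Retn, 0.00013 for Cfd, 0.0023 for Plin1, 0.0311 for Fabp4 and 0.0773 for Lpl. The arrays are shared by all relations, which are therefore not independent of each other. Members were chosen with earlier results of these data known, and the permutations moved arrays freely across groups and slides. The permutation p values therefore describe these arrays and do not test the choice of genes.

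**Figure D2:**
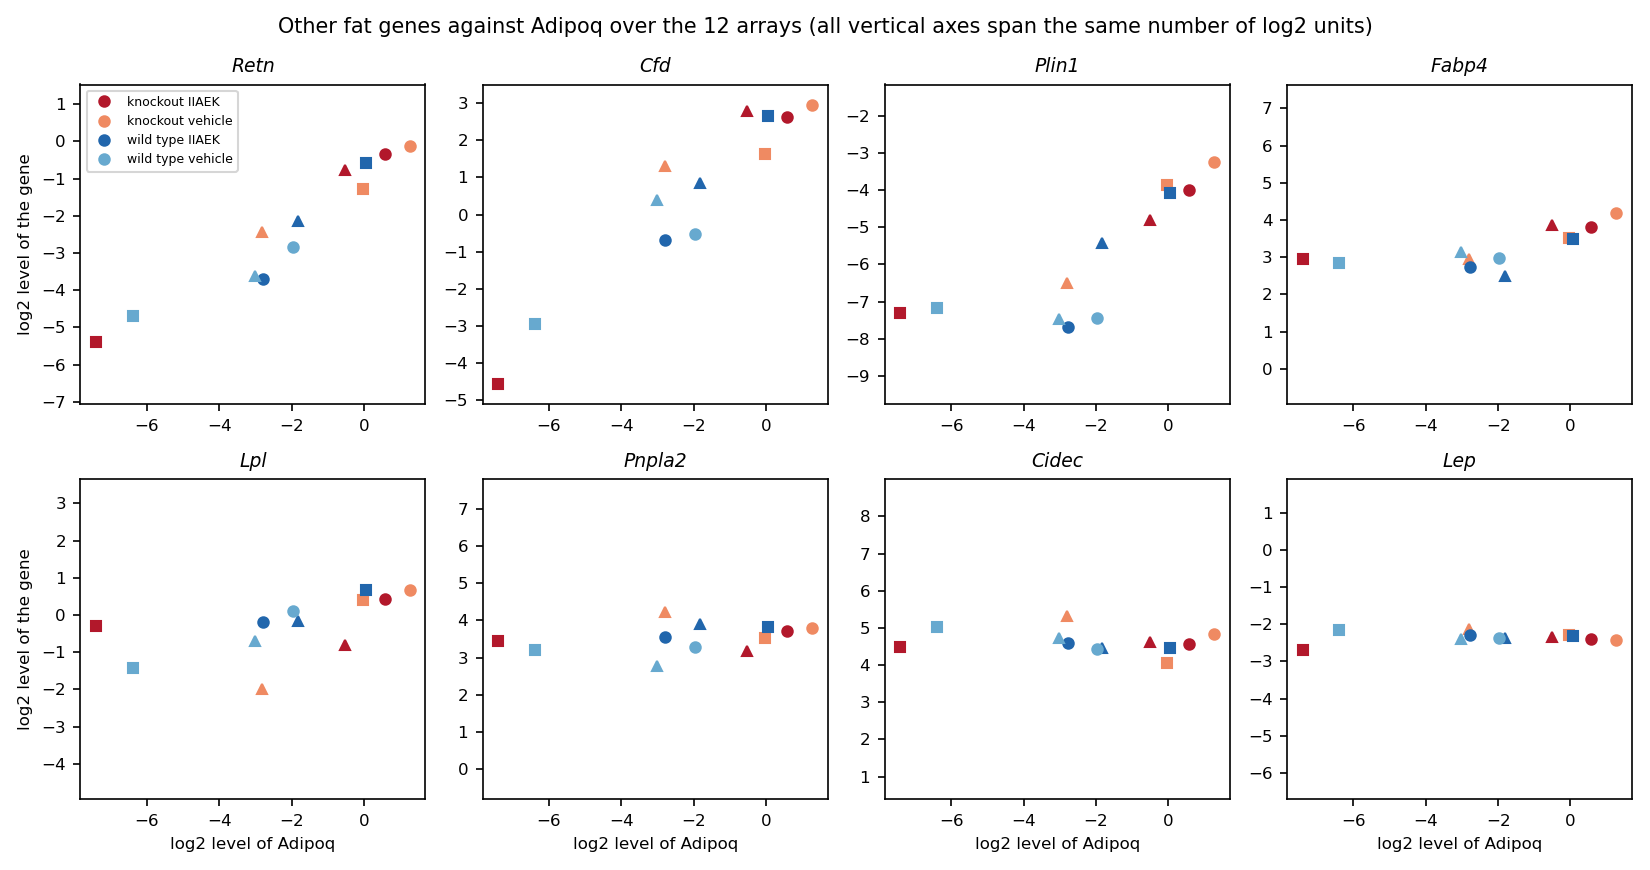
Level of 8 genes on the vertical axis against the level of Adipoq on the horizontal axis, both on the same log2 scale, 1 point per array coloured by group with replicates 1, 2 and 3 as circle, square and triangle. Retn (r = 0.961), Cfd (0.951) and Plin1 (0.804) climb with Adipoq, while Lep (0.121) stays level and all vertical axes span the same number of log2 units.

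Of the 10 genes outside the set whose pattern over the 12 arrays was most like that of the set, 4 were on the list of other adipocyte markers. Likeness was the Pearson correlation with the mean centred profile of the tested members, over 13768 characterised genes detected on all 12 arrays, and is given as a description. Car3, carbonic anhydrase 3, abundant in adipocytes and slow muscle, came first with r = 0.987. Its levels were 1.28, -4.70 and 0.61 in knockout IIAEK mice, and 2.11, 0.75 and -1.51 in knockout vehicle mice. They were -1.49, 1.47 and -0.26 in wild-type IIAEK mice, and -1.31, -4.67 and -1.33 in wild-type vehicle mice. As for Adipoq, knockout IIAEK replicate 2 and wild-type vehicle replicate 2 were lowest and knockout vehicle replicate 1 highest. Next came Cyp2e1, a cytochrome P450 (0.952), Adig, adipogenin (0.945), Adrb3, the beta-3 adrenergic receptor of adipocytes (0.867), and Plin4, perilipin 4 (0.848). Aox1 (0.830), Faxc (0.825), Zfp365 (0.822), Tmem120b (0.820) and Hp, the plasma protein haptoglobin (0.817), completed the 10. Within the set, r with that profile was 0.987 for Retn, 0.985 for Adipoq and 0.969 for Cfd, which helped to make it, and -0.172 for Cidec.

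Other markers of adipocytes were read from a list of 13 genes, all on the array, of which 10 were tested. Their summed signal, in multiples of the 75th percentile, was 3.35 to 7.55 in knockout IIAEK mice, 3.62 to 9.53 in knockout vehicle mice, 3.42 to 7.62 in wild-type IIAEK mice and 2.64 to 4.02 in wild-type vehicle mice. The mean centred log2 level of the 10 tested genes followed Adipoq at r = 0.930 and rho = 0.937 (permutation p = 2e-05 and 3e-05). Without the 2 farthest arrays r was 0.945, and within slides 1 and 2 it was 0.922 and 0.981. The list was not uniform. Against Adipoq, r was 0.989 for Car3, 0.908 for Adig, 0.835 for Adrb3 and 0.803 for Plin4. It was 0.753 for Thrsp, a regulator of lipogenesis, and 0.668 for Slc2a4, the insulin-responsive glucose transporter. For Lipe, hormone-sensitive lipase, it was 0.194, for Acvr1c 0.093, for Lgals12 -0.137 and for Aqp7, a glycerol channel, -0.429. The genes not tested, Trarg1, Slc7a10 and Pnpla3, had r = 0.680, 0.652 and 0.004 and were well above background on 7, 5 and 3 arrays. A second list held 9 genes that adipocytes share with enterocytes, all 9 tested. It did not follow Adipoq (r = -0.235 and rho = -0.441, permutation p = 0.447 and 0.152). Its r was -0.1 without the 2 farthest arrays and -0.360 and -0.317 within slides 1 and 2. Of 10 brown fat markers, Ucp1, the uncoupling protein that defines brown fat, was not well above background on any array, nor were Elovl3, Cpn2 and Zic1. Cox7a1, Ppargc1a and Prdm16 were well above background on 12 arrays, Cox8b and Dio2 on 10 and Otop1 on 1. Against Adipoq, r was 0.851 for Cox8b, a heart and muscle isoform of a cytochrome c oxidase subunit that brown fat also makes. It was 0.321 for Prdm16, -0.055 for Cox7a1, -0.349 for Ppargc1a and -0.470 for Dio2.

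Lists of other cell types the tissue could hold were set beside Adipoq in the same way, by the mean centred log2 level of their tested genes. With the fat-related lists this made 18 relations, and the limits given above for the permutation p of the members hold for them too. Smooth muscle had r = 0.662 and rho = 0.818 (permutation p = 0.0189 and 0.0017, adjusted over 18 relations 0.167 and 0.0149). Its r was 0.472 without the 2 farthest arrays and 0.892 and 0.757 within slides 1 and 2. Fibroblast matrix genes had r = 0.539 and rho = 0.706 (permutation p = 0.067 and 0.0129, adjusted 0.267 and 0.0582), with r = 0.567 without the 2 farthest arrays and 0.892 and 0.691 within slides. Endothelium had r = 0.531 and rho = 0.580 (permutation p = 0.0741 and 0.0522, adjusted 0.267 and 0.157), with r = 0.137 without the 2 farthest arrays and 0.946 and 0.158 within slides. B and plasma cells had r = 0.386 and rho = 0.259 (permutation p = 0.225 and 0.418), with r = 0.071 without the 2 farthest arrays and 0.472 and 0.404 within slides. Mesothelium, the cell layer covering gut and mesentery, had r = 0.157 and rho = 0.084 (permutation p = 0.639 and 0.798), with r = -0.0004 without the 2 farthest arrays and -0.221 and 0.707 within slides. Its summed signal was 1.64 to 2.44 in knockout IIAEK mice, 0.96 to 2.86 in knockout vehicle mice, 1.52 to 2.40 in wild-type IIAEK mice and 1.20 to 3.01 in wild-type vehicle mice. Exocrine pancreas, which lies in the mesentery, had r = -0.058 and rho = -0.182 (permutation p = 0.853 and 0.576), with r = -0.382 without the 2 farthest arrays and 0.005 and 0.015 within slides. Its summed signal reached 3229 in wild-type IIAEK replicate 3 and 266 in knockout vehicle replicate 3. It was 27.8 to 58.5 on the other 10 arrays. Counted down from the highest Adipoq level, wild-type IIAEK replicate 3 ranked 6 and knockout vehicle replicate 3 ranked 9. Small intestinal epithelium had r = -0.296 and rho = -0.070 (permutation p = 0.350 and 0.833), with r = 0.012 without the 2 farthest arrays and 0.273 and -0.882 within slides. The part of these cell types in the members' levels was not tested.

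**Figure D3:**
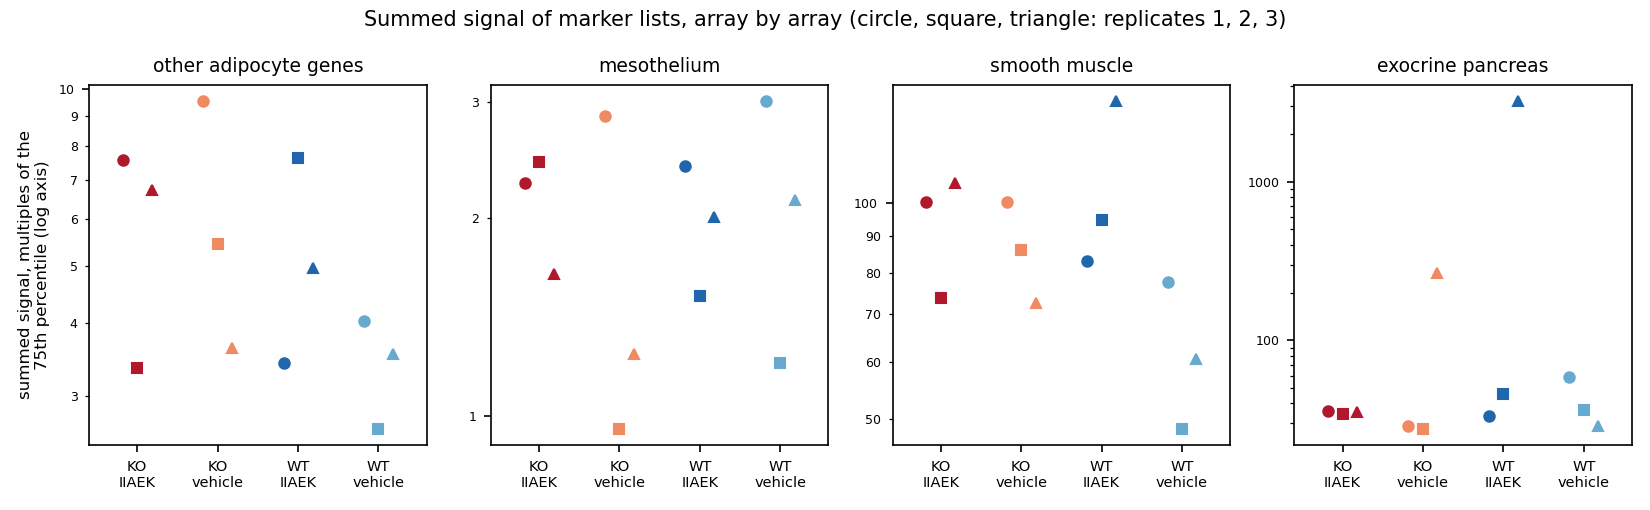
Summed signal of 4 marker lists on each array, in multiples of the 75th percentile on a log axis, by group, with replicates 1, 2 and 3 as circle, square and triangle. The adipocyte list runs from 2.64 to 9.53, and the pancreas list reaches 3229 on 1 wild-type IIAEK array.

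The effect of IIAEK in wild-type mice was the first comparison. No gene of 27565 passed a limma adjusted p of 0.05 in it (0.0% called), so none of the 9 tested members did, and 13.0% of genes had an unadjusted p under 0.05. Adipoq averaged -1.51 ± 1.44 in wild-type IIAEK mice and -3.79 ± 2.30 in wild-type vehicle mice (SD, n = 3 each), a log2 change of 2.28 with a 95% interval from -1.87 to 6.42 and limma adjusted p = 0.554. The change was 1.96 for Cfd (limma adjusted p = 0.566) and 1.58 for Retn (0.525), both with intervals that include 0. Without wild-type vehicle replicate 2 the change was 0.98 for Adipoq and 1.003 for Cfd. Without wild-type IIAEK replicate 2 it was 1.49 for Adipoq, 1.11 for Cfd and 0.80 for Retn, and with normexp background correction 1.23 for Adipoq and 0.99 for Retn. Within slide 1 the Adipoq difference was -0.81 (1 array against 1), and within slide 2 it was 3.82 (2 against 2). The clearest member was Pnpla2, at 3.75 ± 0.18 in wild-type IIAEK mice and 3.08 ± 0.27 in wild-type vehicle mice (SD, n = 3 each), a change of 0.67 ± 0.21 (SE) or 1.59-fold. Its unadjusted limma p was 0.00914 and its adjusted p 0.369, and it differed by 0.28 within slide 1 and 0.87 within slide 2.

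Pnpla2 was the 1 member whose wild-type IIAEK arrays all lay above the wild-type vehicle arrays, against 10.6% of all genes higher without overlap. No member was lower without overlap, against 14.7% of genes. With 3 mice against 3, an exact two-sided permutation test of a single gene cannot go below p = 0.1. Of the 9 members, 6 had a change above 0 and 3 below, with a median of 0.67 against -0.06 over all genes. Over the 7 members detected on all 12 arrays the median was 0.29. Of the 10 tested genes of the adipocyte list, 7 lay above 0 with a median of 0.60, and 1, Slc2a4, had an unadjusted p under 0.05 (change 1.03, limma adjusted p = 0.369). Of the 9 genes that adipocytes share with enterocytes, 5 lay above 0 and 4 below, with a median of 0.01. Of 13 smooth muscle genes, 13 lay above 0 with a median of 0.89 and 9 had an unadjusted p under 0.05. Their summed signal was 83.1 to 139 in wild-type IIAEK mice and 48.5 to 77.6 in wild-type vehicle mice. Above 0 were also 16 of 16 exocrine pancreas genes (median 2.57, 0 at an unadjusted p under 0.05), 11 of 12 fibroblast matrix genes (median 0.57, 4) and 10 of 12 B and plasma cell genes (median 0.96, 1). Summed pancreas signal was 3229 in wild-type IIAEK replicate 3, against 29.0 to 58.5 on the other wild-type arrays. Of 8 mesothelium genes, 5 lay above 0 and 3 below (median 0.52, 0 at an unadjusted p under 0.05). Summed B and plasma cell signal was 174 to 253 in wild-type IIAEK mice and 230 to 277 in wild-type vehicle mice. The part of these cell types in the members' values was not tested.

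In knockout mice 8 of the 9 tested members had a lower mean on IIAEK than on vehicle, and none passed the test. No gene passed an adjusted p of 0.05 by limma (0.0% called), 4.42% of genes had an unadjusted p under 0.05 and no member did. Adipoq averaged -2.45 ± 4.32 in knockout IIAEK mice and -0.52 ± 2.08 in knockout vehicle mice (SD, n = 3 each), a change of -1.92 with an interval from -6.07 to 2.22 (limma adjusted p = 0.912). The change was -1.68 for Cfd and -0.89 for Retn, and with normexp background correction -0.80 for Adipoq and -0.35 for Retn. All 3 turned sign when 1 array was left out. Without knockout IIAEK replicate 2 they were 0.55 for Adipoq, 0.74 for Cfd and 0.72 for Retn. Fabp4, counted among the 8, had a change of only -0.0014, and of 0.29 without that array. Within slide 1, which holds that array, the Adipoq difference was -4.03 (2 arrays against 2), and within slide 2 it was 2.29 (1 against 1). Pnpla2 had a change of -0.40 ± 0.21 (SE, limma adjusted p = 0.910) and Lep of -0.20 with an interval from -0.51 to 0.11. Of the 9 members, 1 lay above 0 and 8 below, with a median of -0.20 against 0.01 over all genes, and no member's groups were free of overlap, against 4.02% of genes higher and 3.5% lower. Below 0 were also 9 of 12 B and plasma cell genes (median -2.13, 8 at an unadjusted p under 0.05) and 15 of 16 exocrine pancreas genes (median -2.13, 0). Summed B and plasma cell signal was 166 to 278 in knockout IIAEK mice and 165 to 259 in knockout vehicle mice. Summed pancreas signal was 266 in knockout vehicle replicate 3, against 27.8 to 35.8 on the other knockout arrays. Mesothelium went the other way, with 7 of 8 genes above 0 (median 0.98, 0 at an unadjusted p under 0.05). The part of these cell types in the members' values was not tested.

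Between genotypes on vehicle, every tested member had a higher mean in knockout mice, and again none passed the test. No gene passed an adjusted p of 0.05 by limma (0.0% called). An unadjusted p under 0.05 was seen for 11.4% of genes and for 2 of the 9 members, Pnpla2 and Cidea. Pnpla2 averaged 3.84 ± 0.35 in knockout vehicle mice and 3.08 ± 0.27 in wild-type vehicle mice (SD, n = 3 each), a change of 0.76 ± 0.21 (SE) or 1.69-fold with unadjusted p = 0.00437 and limma adjusted p = 0.423. Cidea averaged -1.40 ± 0.12 in knockout vehicle mice and -1.91 ± 0.31 in wild-type vehicle mice, a change of 0.51 ± 0.17 (SE) or 1.43-fold with limma adjusted p = 0.423. Within slides 1 and 2 the difference was 0.38 and 1.23 for Pnpla2 and 0.73 and 0.37 for Cidea.

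The point estimates were larger for the adipokines and their intervals wider. Adipoq had a change of 3.27 with an interval from -0.88 to 7.41 (limma adjusted p = 0.495), Cfd of 2.99 with an interval from -0.70 to 6.68 (0.487) and Retn of 2.44 with an interval from -0.22 to 5.10 (0.459). Within slides 1 and 2 the difference was 2.59 and 1.89 for Adipoq, 2.82 and 2.58 for Cfd and 2.14 and 1.73 for Retn. The Adipoq change was 1.97 without wild-type vehicle replicate 2 and 2.11 with normexp background correction. Fabp4 had a change of 0.56 with an interval from -0.20 to 1.33 (limma adjusted p = 0.519), 0.86 within slide 1 and -0.038 within slide 2, and 0.24 without knockout vehicle replicate 1 and 0.87 without knockout vehicle replicate 3. Lpl had a change of 0.39 with an interval from -1.01 to 1.78 (limma adjusted p = 0.811), 0.45 within slide 1 and -0.92 within slide 2, and from -0.11 to 1.23 when 1 array was left out, the lowest without knockout vehicle replicate 1 and the highest without knockout vehicle replicate 3. Lep had a change of 0.02 with an interval from -0.29 to 0.33, and Cidec of 0.01 with an interval from -0.57 to 0.60. Cfd, Retn, Cidea and Pnpla2 were higher in knockout vehicle mice without overlap, 4 of 9 members against 10.3% of all genes, and no member was lower without overlap, against 13.4%. The 4 genes were read on the same 6 arrays. The median over members was 0.56 against -0.03 over all genes.

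The gene lists are read here against the 11.4% of all genes with an unadjusted p under 0.05. Of the 10 adipocyte list genes, 7 lay above 0 in this comparison and 3 had an unadjusted p under 0.05: Plin4 (change 1.38, limma adjusted p = 0.423), Adrb3 (1.24, 0.435) and Slc2a4 (0.72, 0.435). Of the 9 genes that adipocytes share with enterocytes, 5 lay above 0 and 4 below, with a median of 0.04. An unadjusted p under 0.05 was seen for 1 of the 9, a share near that of all genes. Of 12 tested genes of droplet proteins and lipolysis, 3 had an unadjusted p under 0.05, all higher: Plin4, Bscl2, seipin, which organises droplet formation (0.46, limma adjusted p = 0.432), and Plin5 (0.77, 0.436). Among partners of Lpl, an unadjusted p under 0.05 was seen for Gpihbp1, which carries Lpl to the capillary wall (0.51, limma adjusted p = 0.423), and Lmf1, which matures it (0.52, 0.435), both higher. Of 7 adipokine receptors and binding proteins, 1 did, a share near that of all genes: Cdh13, T-cadherin, which binds adiponectin (0.99, limma adjusted p = 0.423). Smooth muscle genes lay above 0 in 12 of 13 cases, 6 with an unadjusted p under 0.05, and their summed signal was 72.6 to 100.3 in knockout vehicle mice and 48.5 to 77.6 in wild-type vehicle mice. B and plasma cell genes lay above 0 in 9 of 12 cases, 7 of them with an unadjusted p under 0.05, with a median of 1.60. Their summed signal was 165 to 259 in knockout vehicle mice and 230 to 277 in wild-type vehicle mice. Fibroblast matrix genes lay above 0 in 10 of 12 cases, 1 with an unadjusted p under 0.05, with a median of 0.29, and their summed signal was 67.5 to 105 in knockout vehicle mice and 60.3 to 105 in wild-type vehicle mice. Mesothelium went the other way, with 8 of 8 genes below 0 (median -0.52, 0 at an unadjusted p under 0.05). Its summed signal was 0.96 to 2.86 in knockout vehicle mice and 1.20 to 3.01 in wild-type vehicle mice. The part of these cell types in the members' values was not tested.

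On IIAEK no member passed the test between genotypes either, and 6 of the 9 had a lower mean in knockout mice. No gene passed an adjusted p of 0.05 by limma (0.0% called), 7.66% of genes had an unadjusted p under 0.05 and no member did. The changes, knockout over wild type, were -0.93 for Adipoq with an interval from -5.08 to 3.21 (limma adjusted p = 0.890), -0.66 for Cfd and -0.03 for Retn. Without knockout IIAEK replicate 2 they were 1.54, 1.76 and 1.58 in that order. Within slides 1 and 2 the Adipoq difference was -0.63 and 0.36. Fabp4 averaged 3.55 ± 0.50 in knockout IIAEK mice and 2.91 ± 0.52 in wild-type IIAEK mice (SD, n = 3 each), a change of 0.64 ± 0.35 (SE, limma adjusted p = 0.661). Of the 9 members, 3 lay above 0 and 6 below, with a median of -0.16 against 0.02 over all genes, and none was free of overlap, against 5.52% of genes higher and 3.87% lower. Below 0 were also 10 of 12 B and plasma cell genes (median -1.48, 5 at an unadjusted p under 0.05), 16 of 16 exocrine pancreas genes (median -4.82, 1) and 12 of 13 smooth muscle genes (median -0.32, 1). Summed B and plasma cell signal was 166 to 278 in knockout IIAEK mice and 174 to 253 in wild-type IIAEK mice. Summed pancreas signal was 3229 in wild-type IIAEK replicate 3, against 33.2 to 45.7 on the other IIAEK arrays. Of 8 mesothelium genes, 5 lay above 0 and 3 below (median 0.15, 0 at an unadjusted p under 0.05). The part of these lists in the members' values was not tested.

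The interaction asked whether IIAEK acted differently in knockout and wild-type mice, as the change in knockout minus the change in wild type. No gene passed an adjusted p of 0.05 by limma (0.0% called), and 15.1% of genes had an unadjusted p under 0.05. Pnpla2 was the 1 member among them, at -1.07 ± 0.30 (SE) with unadjusted p = 0.00441 and limma adjusted p = 0.311, and with -0.36 within slide 1 and -1.92 within slide 2. Adipoq had -4.20 with an interval from -10.1 to 1.66 (limma adjusted p = 0.444), Cfd -3.65 (0.452) and Retn -2.47 (0.480). Without knockout IIAEK replicate 2 these were -1.72 for Adipoq, -1.23 for Cfd and -0.86 for Retn, and with normexp background correction -2.03 for Adipoq and -1.34 for Retn. Of the 9 members, 2 lay above 0 and 7 below, with a median of -0.72 against 0.06 over all genes. In 13 of 13 smooth muscle genes the value was below 0, with a median of -0.88 and 7 at an unadjusted p under 0.05. It was below 0 in 9 of 12 B and plasma cell genes (median -3.08, 8 at an unadjusted p under 0.05), in 16 of 16 exocrine pancreas genes (median -4.70, 0 at an unadjusted p under 0.05), in 9 of 12 fibroblast matrix genes (median -0.42, 3) and in 8 of 11 endothelial genes (median -0.67, 2). Summed pancreas signal stood out on 2 arrays, wild-type IIAEK replicate 3 (3229) and knockout vehicle replicate 3 (266). Mesothelium went the other way, with 8 of 8 genes above 0 (median 0.53, 0 at an unadjusted p under 0.05). The part of these cell types in the members' values was not tested.

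**Figure D4:**
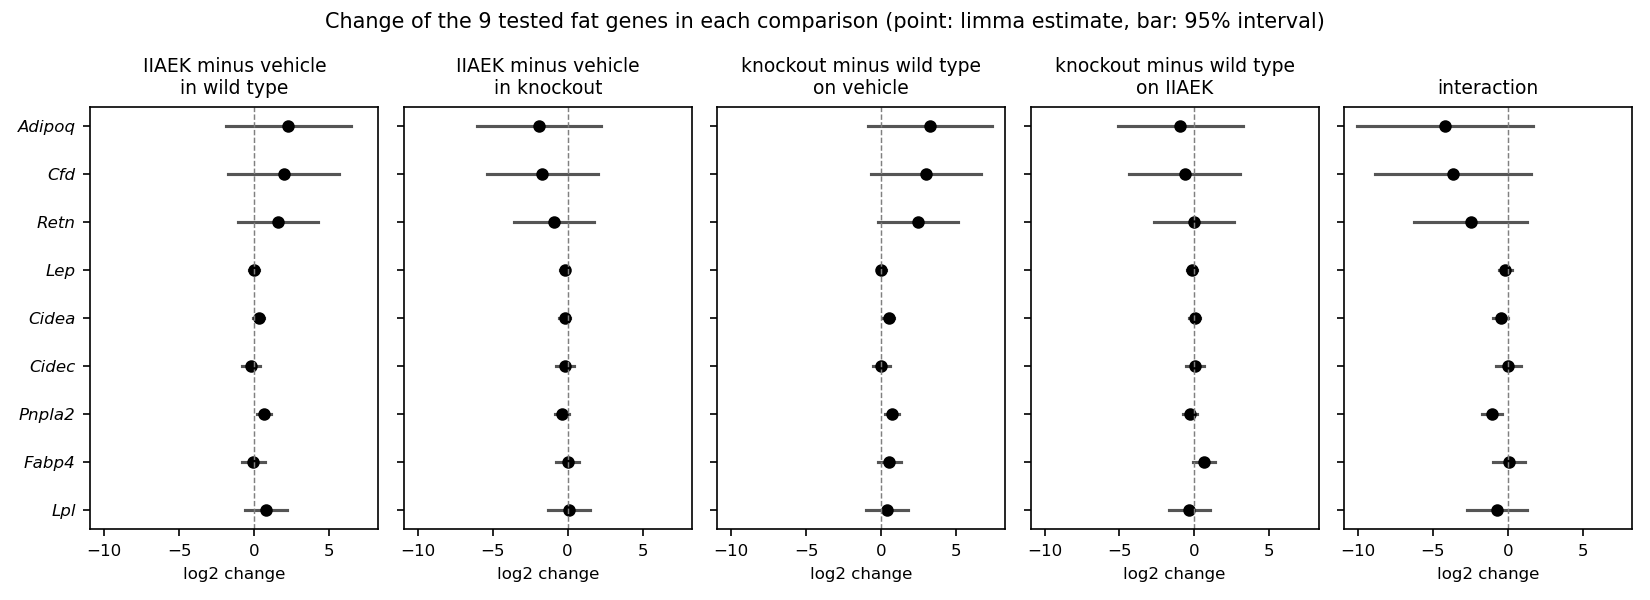
Log2 change of the 9 tested genes in the 5 comparisons, as limma estimates with 95% intervals along the horizontal axis. Intervals of Adipoq, Cfd and Retn are several log2 units wide and include 0 in every panel, whereas Lep lies close to 0. Before adjustment for the number of genes, the Pnpla2 interval leaves 0 in 3 panels, and the Cidea interval does so between genotypes on vehicle (0.14 to 0.88).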

How the data were processed

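RNA from the jejunum of 12 mice was labelled with Cy3 and hybridised to 1 array per mouse, per the labels. The authors deposited Feature Extraction scanner intensities (version 10.7.3.1, per the file headers) and a value table on a log2 scale, with column medians from -0.0798 to 0.151. It matched the scanner values, after each probe's median over the arrays was subtracted, at r of 0.9997 or more per array, so its direction and probe-wise centring were read from the values. Spots flagged as outliers were dropped, the log2 processed signal was averaged per probe and the 75th percentile of each array subtracted. A probe was kept if some group had it well above background on each of its 3 arrays, and the brightest probe stood for each gene. A probe without a gene symbol counted as its own gene, so of the 27565 genes tested 15812 had a symbol. All 27565 were tested with limma 3.58.1 in R 4.3.3 (lmFit and eBayes, 4 group means, Benjamini-Hochberg adjustment). Intervals are 95% and unadjusted. The scanner files give a median and no mean signal, so normexp (offset 50) used median signals. Other settings are in the closing section. The limma fit was tested on simulated data. Correlations used 100000 permutations. Members and lists were chosen with earlier results of these data known. In the text on the comparisons not every member is named, and of a list at most 4 genes are, by smallest p. Outside the comparisons, the 10 members, the 10 genes closest in profile and all genes of the adipocyte and brown fat lists are named. Gene names follow the arrays and RefSeq tables. A result on 1 gene of the list of Lpl partners is not reported here.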

Additional observations from a re-analysis of the deposited data

How the results depend on the processing

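No member passed an adjusted p of 0.05 in limma under any alternative that was run. Of 926 alternative values for 45 member changes, 42 changed sign, spread over 17 changes, and the smallest adjusted p was 0.113 (Pnpla2 interaction without knockout IIAEK replicate 1). Leaving out 1 array at a time, the change in knockout mice on IIAEK ranged from -3.43 to 0.55 for Adipoq, -2.93 to 0.74 for Cfd, -1.81 to 0.72 for Retn, -0.53 to 0.10 for Cidec, -0.30 to 0.32 for Fabp4 and -0.78 to 0.56 for Lpl. For wild-type mice on IIAEK it was -0.37 to 0.13 for Fabp4 and -0.0657 to 0.0657 for Lep. For knockout over wild type on IIAEK it was -2.44 to 1.54 for Adipoq, -1.91 to 1.76 for Cfd, -0.95 to 1.58 for Retn and -0.0629 to 0.10 for Cidea. On vehicle it was -0.28 to 0.36 for Cidec, -0.0538 to 0.11 for Lep and -0.11 (without knockout vehicle replicate 1) to 1.23 (without knockout vehicle replicate 3) for Lpl. For the interaction it was -0.31 to 0.33 for Cidec and -0.23 to 0.40 for Fabp4. The members' median ranged from -0.53 to 0.11 in knockout mice on IIAEK and from -1.11 to -0.40 for the interaction. Over these fits 0 to 1 genes passed for IIAEK in wild type and 0 to 2 for each comparison of genotypes.

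Sign changes by other settings were these. Normexp gave -0.017 for Lpl (IIAEK in knockout), 0.0725 for Adipoq and 0.30 for Retn (genotype on IIAEK) and -0.0235 for Cidec (interaction). Quantile normalization gave 0.0053 for Lep (IIAEK in wild type), -0.0803 for Cidec and -0.0149 for Fabp4 (interaction). The deposited table gave 0.0144 for Fabp4 (IIAEK in knockout), slide as a block 0.0844 for Retn (genotype on IIAEK), and the mean of all probes -0.0601 for Lpl (IIAEK in knockout). The members' median for IIAEK in wild type was 0.29 when only the 7 members detected on all 12 arrays were kept, and the interaction median -1.07 with the mean of all probes. The cause was not tested. With only the compared arrays fitted, which lowers the number of arrays behind the spread, 14 genes passed for IIAEK in knockout, 1 for genotype on vehicle and 4 for genotype on IIAEK. With slide as a block 1 gene passed for IIAEK in wild type and 1 for genotype on IIAEK. A replicate block gave 0 genes in all 5 comparisons (1396 to 4084 at an unadjusted p under 0.05). It could not move the log2 changes, because every group holds the same replicate numbers. The medians, from 0.67 (IIAEK in wild type) to -0.72 (interaction), were therefore the same by design. Same-numbered arrays had residual correlations from -0.25 to 0.35, 8 of 18 above 0.1. These values cannot decide whether the numbers pair the mice. The residuals are taken from means of few arrays, and replicate number is partly tied to slide.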
